A study of Mus musculus with 6 samples.

Results

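The genes of cytokines, chemokines and the tumour necrosis factor (TNF) family, with the Socs, Jak and Stat genes that act behind their receptors, were chosen by name from the authors' deposited tables of cytosines whose methylation differed between Tet1 knockout and wild-type cells. A row belonged to them where the name of the nearest gene began with Il, Csf, Ccl, Ccr, Cxcl, Cxcr, Socs, Jak or Stat and a digit, or with Tnfrsf, Tnfsf, Tnfaip, Traf or Ifn. They numbered 56 of the 6756 listed cytosines and 33 of the 3344 nearest genes. The cytosines were measured by bisulfite sequencing of a reduced, mainly CpG-rich part of the genome (the enhanced RRBS method) in LSK cells. These are flow-sorted bone marrow cells, negative for lineage markers and positive for Sca-1 and Kit, among which are the blood stem and progenitor cells. Bisulfite conversion reads 5-methylcytosine and 5-hydroxymethylcytosine alike. The groups were 3 samples labelled Tet1 KO and 3 labelled WT, all from mice aged 6 months with the strain given as CD57BL/6. Tet1 encodes an enzyme that oxidises 5-methylcytosine. The labels do not describe the knockout allele, or whether each sample was a separate mouse.

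Every difference below is the single value the authors' deposited tables give for a cytosine over all samples, in percentage points of methylation, knockout minus wild type, a direction read from the list names and the signs. Only differences of at least 25 percentage points are listed. A gain or a loss is a listed value above or below 0. Levels per sample and coverage were not used here, so the replicate spread and the depth behind a value are unknown, no difference could be tested, and neither the sorted cell type nor the loss of Tet1 could be checked from these lists. A gene named here is the one with the nearest annotated transcription start, which need not be a gene that the cytosine regulates. Positions are mm9.

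Cytokines are secreted signals, and in the bone marrow they govern survival, division and lineage choice of stem and progenitor cells. Most interleukins, interferons and colony-stimulating factors act through receptors that activate Jak kinases and Stat transcription factors, and the induced Socs proteins switch that signal off. Chemokines guide cell movement through G protein-coupled receptors, and receptors of the TNF family signal to NF-κB or to cell death. Methylation of a promoter often accompanies a silent gene, but the lists hold no expression.

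Nearly all listed cytosines of these genes were more methylated in the knockout. Of the 56 sites, 51 were hypermethylated (91.1%, exact Clopper-Pearson 95% interval 80.4 to 97.0%) and 5 were hypomethylated, against 92.8% hypermethylated among all listed sites. Of the 33 genes, 29 had hypermethylated sites alone (87.9%), against 87.0% of all listed genes. Both shares were near those of the whole lists. The genes were also listed about as often as others: of the 239 protein-coding genes in the RefSeq table whose symbols follow the same rule, 32 were nearest to a listed site (13.4%), against 13.7% of all protein-coding genes. Intervals here cover counting error only. In addition, 17 of the 56 sites (30.4%) had another member site of the same strand and direction within 50 bp, the read length given in the labels, against 44.7% of all sites counted the same way. Such sites may share reads and are not independent.

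The listed gains ran from just above the list threshold to 78.6 percentage points. The 51 hypermethylated sites had a median difference of 38.2 percentage points (binomial 95% interval 34.6 to 40, lowest 25.5), against 41.1 for all hypermethylated sites. Differences of at least 40 percentage points made up 19 of the 51 (37.3%, 24.1 to 51.9%), against 53.4% of all hypermethylated sites. At 60 percentage points or more there were 5 sites (9.80%), against 12.3%. Sites less than 1000 bp apart were also joined, which gave 36 hypermethylated regions of these genes. Their median was 36.8 percentage points (33.3 to 39.5), against 39.3 for all hypermethylated regions. Of the 36 regions, 11 reached 40 percentage points (30.6%, 16.3 to 48.1%), against 47.6% of all hypermethylated regions. Both region intervals hold the value of the whole lists, while the site intervals of the median and of the share at 40 do not. These shares and medians were set side by side without a test.

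**Figure D1:**
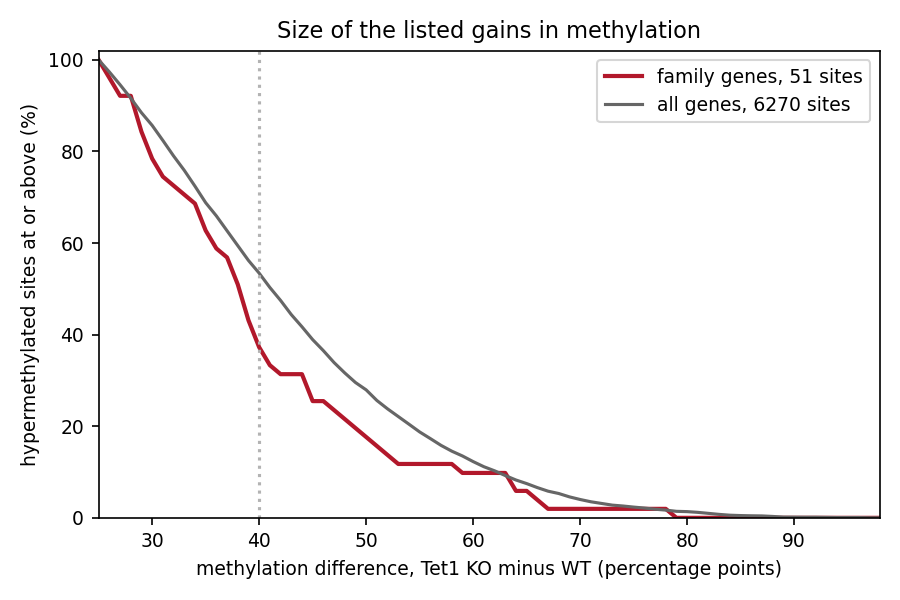
Share of hypermethylated sites (vertical axis, percent) whose listed difference reached the value on the horizontal axis (percentage points, Tet1 KO minus WT), for the 51 sites of the family genes (red) and for all 6270 hypermethylated sites (grey). At 40 percentage points, the dotted line, the red curve stands at 37.3% and the grey one at 53.4%. Both curves count single sites, and neighbouring sites are not independent.

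Promoters held 6 of the 51 hypermethylated sites (11.8%, 4.44 to 23.9%), against 11.2% of all hypermethylated sites. Those 6 belonged to Cxcl3, Il22ra1 and Il6ra. Introns held 14 sites (27.5%, against 31.3% of all), intergenic sequence 19 (37.3%, against 36.1%) and exons 4 (7.84%, against 19.6%). Transcription termination sites held 8 (15.7%, 7.02 to 28.6%), against 1.82% of all, but the 8 came from only 3 clusters, nearest Tnfrsf13b, Tnfrsf18 and Il4i1. Counted as regions, that is 3 of 36 (8.33%, 1.75 to 22.5%), against 1.85% of all hypermethylated regions. Repeats held 4 of the 56 sites (7.14%, against 8.20% of all listed sites), nearest Ccr10, Cxcl16, Il28b and Tnfrsf23. Of the 56 sites 1, nearest Il17rd, was labelled as a CpG island, against 287 of all 6756 listed sites. Among the members, repeat and island labels stood only at intronic and intergenic sites. Promoter, exon and termination sites carried their feature's name in that place, so repeats and islands holding them were not counted.

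**Figure D2:**
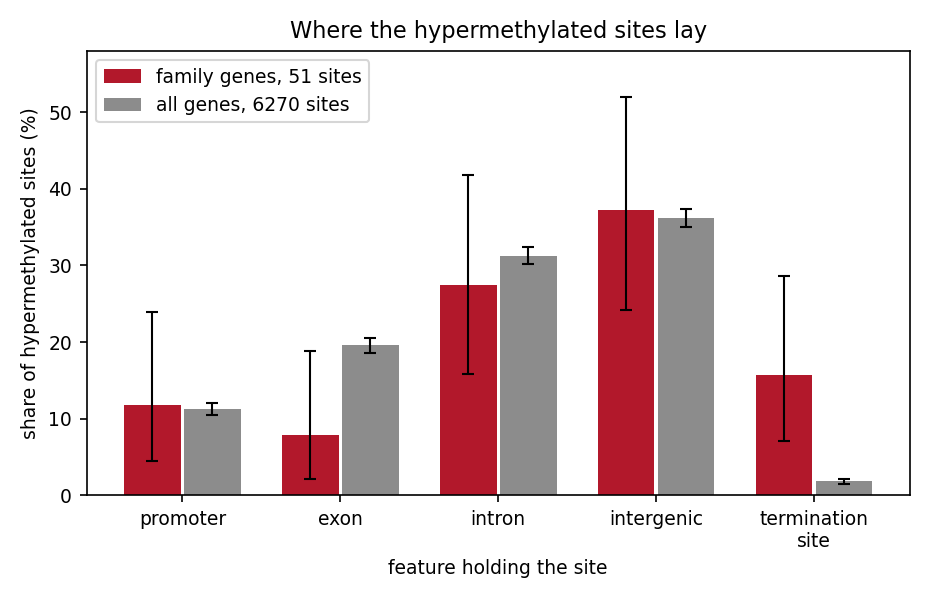
Share of hypermethylated sites (vertical axis, percent) by annotated feature for the family genes (red, 51 sites) and all genes (grey, 6270 sites); bars are shares and error bars exact 95% intervals of counting error. The termination-site bars stand at 15.7% and 1.82%, and the 8 sites in the red one come from 3 clusters.

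Among the ligands, Cxcl3 had the site closest to a start. Cxcl3 encodes a chemokine that draws neutrophils through Cxcr2. Its 3 promoter sites on chromosome 5, at 91215076, 91215110 and 91215194, gained 40, 40 and 37.4 percentage points in the knockout. The first and the second lay 53 and 19 bp before the start and the third 65 bp after it. The gains of the 3 sites thus differed by less than 3 percentage points. The sequence is shown because 2 of the 3 sites fall inside it: the 250 bases before the RefSeq start of Cxcl3 (GRCm38.p6, chr5:90785851-90786100, forward strand) read as below.

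Cxcl3: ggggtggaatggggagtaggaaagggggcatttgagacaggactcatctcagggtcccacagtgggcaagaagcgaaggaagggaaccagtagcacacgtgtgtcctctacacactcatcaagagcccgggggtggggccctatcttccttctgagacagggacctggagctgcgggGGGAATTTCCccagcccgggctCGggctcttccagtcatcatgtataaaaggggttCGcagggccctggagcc

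The CG pairs in capitals are those 34 bp apart, 51 and 17 bp before this start, that were matched to the first and second sites. Of all shifts of up to 20 bp, only a shift of 2 bp put both listed distances on a CG, so this start and the one behind the deposited distances differ by that much. The longer run in capitals, from 73 to 64 bp before the start, is the window's match to a pattern of the kind bound by NF-κB, searched as 3 G, any 2 bases, 3 T and 2 C. The match lies 13 bp before the nearer of the pairs and overlaps neither. Searched on both strands, that pattern occurred in 1.41% of the 32851 RefSeq promoter windows of the same length. The Cxcl3 window held 7 CG pairs, against a median of 6, and no match to the Stat-type element TTCNNNGAA, which 7.02% of windows held. Such matches describe letters alone.

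Cxcl5, another neutrophil chemokine gene of the same cluster, had 1 site, in the 5′ UTR in exon 1 of 4, 109 bp past its start (91188434), at 35.7 percentage points. It lay 26642 bp from the nearest Cxcl3 site, and no other listed cytosine lay within 50000 bp of either gene's sites. Both chemokine genes thus had their listed gains next to the start. Cxcl14, a chemokine made mainly by epithelia, had 1 site in intron 2 of 3, at 38.3 percentage points. The 2 sites nearest Cxcl16, a membrane-bound chemokine gene, gained 38.2 and 25.5 percentage points but lay in intron 13 and exon 14 of the neighbouring gene Zmynd15, over 5000 bp upstream of Cxcl16.

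The interleukin genes Il34, Il5 and Il28b had 4 listed sites, all of them gains, as were 92.8% of all listed sites. Il34 encodes a second ligand of the colony-stimulating factor 1 receptor, which drives macrophage development. One of its sites, 127 bp past the start in the 5′ UTR (chromosome 8, 113329676), gained 38.6 percentage points, and the other, in intron 1 of 7 at 12516 bp, gained 44.5. Il5, the eosinophil growth factor gene, had 1 intergenic site 14519 bp past its start, at 34.6 percentage points. Il28b, listed by RefSeq as the interferon lambda gene Ifnl3, had 1 intergenic site in a SINE repeat, at 28.3. Il4i1, which the rule takes in by its name, encodes an amino acid oxidase induced by interleukin 4 and not a cytokine. Its 2 sites had the largest gains of the genes named Il and a digit, 65.4 and 58.8 percentage points. They lay 31 bp apart on chromosome 7 (52095634 and 52095665), and were annotated to the termination site of Tbc1d17.

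**Figure D3:**
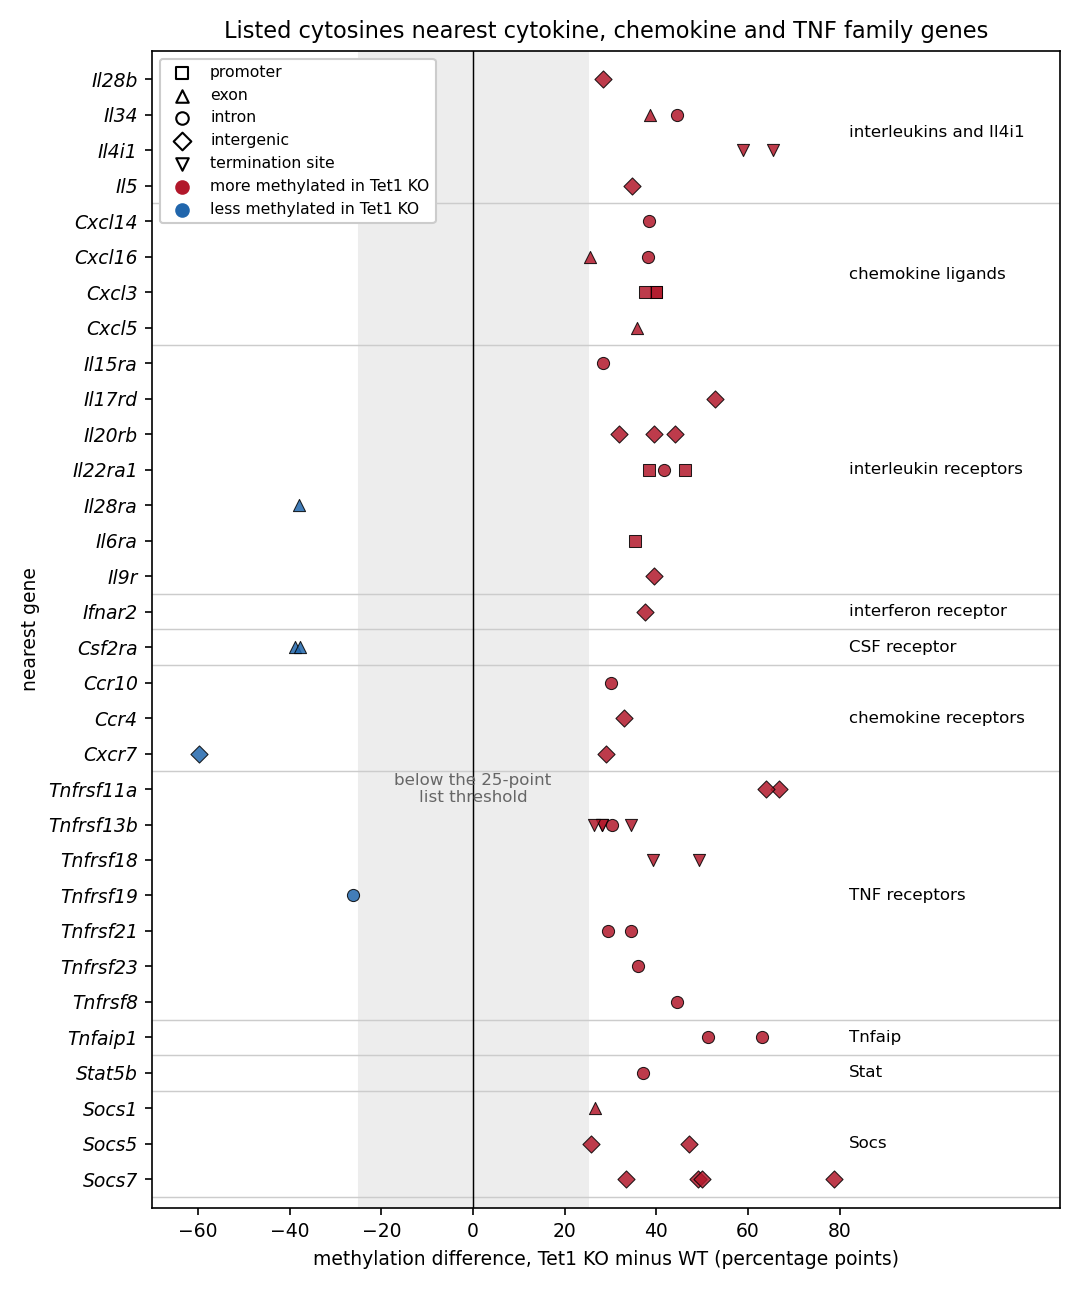
Each listed cytosine nearest 32 of the family genes, by gene (rows, grouped by family) and by its methylation difference (horizontal axis, percentage points, Tet1 KO minus WT); red is more and blue less methylated in Tet1 KO, marker shapes give the feature, and the grey band is the range that the lists leave out. Of the 55 sites drawn 50 lie to the right of the band, and the highest, nearest Socs7, stands at 78.6.

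Among the interleukin receptors, 10 of 11 sites gained methylation, near the 92.8% of all listed sites. Il22ra1 encodes the signalling chain of the interleukin 22 receptor, known mainly from epithelia. Its promoter sites at 487 and 326 bp before the start (chromosome 4, 135283587 and 135283748) gained 38.3 and 46.2 percentage points, and a site 213 bp past the start, in intron 1 of 6, gained 41.7. The nearest listed site of another gene had the opposite sign: Il28ra, the receptor chain for interferon lambda (Ifnlr1 in RefSeq), had 1 site, in exon 7 of 7 at 135261416, at -38.1 percentage points. These opposite values stood 22171 bp apart, and no other listed cytosine lay within 50000 bp of either gene's sites. Il6ra, the ligand-binding chain of the interleukin 6 receptor, had 1 promoter site 790 bp before its start, at 35.4 percentage points (chromosome 3, 89717874). Il15ra, which presents interleukin 15 to neighbouring cells, had 1 site in intron 1 of 6, 859 bp past the start, at 28.2.

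The remaining interleukin receptor sites were far from their genes. Il20rb, a receptor chain for interleukins 19, 20 and 24, had 3 intergenic sites between 99039 and 219110 bp from its start, at 44.1, 39.5 and 31.8 percentage points. Il17rd, whose product dampens fibroblast growth factor signals, had the largest gain of the interleukin receptors, 52.7 percentage points, in an intergenic island 76240 bp away. Il9r, the interleukin 9 receptor gene, had 1 intergenic site at 37233 bp and 39.5 percentage points. Ifnar2, a chain of the type I interferon receptor, had 1 intergenic site 25271 bp upstream, at 37.4.

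RefSeq names 8 Csf genes, of which 1 was listed, beside 13.7% of all protein-coding genes. That gene, Csf2ra, had losses alone, while 87.0% of all listed genes had gains alone. Csf2ra encodes the ligand-binding chain of the receptor for GM-CSF, a growth factor of granulocytes and macrophages. Its sites at 61302165 and 61302170 on chromosome 19, both on the reverse strand in exon 6 of 12, stood at -38.9 and -37.7 percentage points. They lie 5 bp apart, so they may come from the same reads, and no other listed cytosine lay within 50000 bp.

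Each of the 3 listed chemokine receptor genes had a gain, and gains made up 92.8% of all listed sites. The 3 gains lay between 29.1 and 33.0 percentage points. Ccr10 and Ccr4 are receptors of skin-homing T cells. Ccr10 gained 30.1 percentage points at a site in its only intron, 524 bp past the start, 6821 bp from the nearest listed site of Plekhh3. Counting the Ccr10 site, 19 listed sites lay within 50000 bp of it, all gains, nearest Ccr10, Plekhh3 or Tubg2. Ccr4 gained 33.0 at an intergenic site 13564 bp upstream. Cxcr7 (Ackr3 in RefSeq), a receptor that takes up the stem cell chemokine Cxcl12, was the member with sites in both directions. Its site 1040 bp before the start gained 29.1 percentage points (chromosome 1, 92099538), while its other site, 22067 bp past the start (92122645), stood at -59.7, the largest loss among the 5 hypomethylated sites.

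TNF receptors were the most often listed family by genes, together with interleukin receptors, at 7 genes each. The RefSeq table names 20 TNF receptor genes by this prefix, so 7 of 20 were listed, beside 6 of 41 interleukin receptor genes under their RefSeq names and 13.7% of all protein-coding genes. Of 42 interleukin genes (with Il4i1) 3 were listed, of 37 chemokine ligand genes 4, and of 17 chemokine receptor genes 2. Of 26 genes of interferons and their receptors 3 were listed, all of these counts being under RefSeq names. The families with no listed gene were short (12 TNF ligand genes, 11 genes whose names begin with Traf and 3 Jak genes). Such counts also reflect how many cytosines of each gene were read, which is unknown, and nothing particular to a family is read from them. Tnfrsf13b encodes TACI, a receptor of B cells, and had the most sites of any member. Its 5 sites lay within 520 bp on chromosome 11 (60960630 to 60961150), 1 in intron 3 of 3 and 4 at the termination site. They gained 30.3, 28.1, 28.1, 34.4 and 26.4 percentage points from first to last, on both strands. All 5 were thus within 10 percentage points of the list threshold.

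The largest TNF receptor gains were far from a start. Tnfrsf11a encodes RANK, the receptor that drives osteoclast formation, and its 2 intergenic sites, 28 bp apart on chromosome 1 and 100064 and 100092 bp past the start, gained 66.7 and 63.9 percentage points. Tnfrsf18 encodes GITR, found on regulatory T cells. The 2 sites nearest to it gained 39.3 and 49.4 percentage points, but were annotated to the termination site of Ttll10. Tnfrsf8 encodes CD30, an activation marker of lymphocytes, and had 1 site 373 bp past its start, in intron 1 of 12, at 44.4. It was the TNF receptor site closest to a start. Tnfrsf21, a death receptor gene, had intronic sites at 34.4 and 29.4 percentage points. Tnfrsf23, a decoy receptor gene of the mouse, was nearest to a site at 36.1 in a LINE repeat within an intron of Osbpl5. Tnfrsf19 alone of this family had a loss, -26.2 percentage points, in intron 3 of 9. Tnfaip1, named for its induction by TNF and encoding an adaptor of a ubiquitin ligase, had 2 sites in intron 1 of 6, 48 bp apart and 950 and 998 bp past the start, at 51.1 and 63.1 percentage points.

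Of the inhibitors of these signals, 3 of 7 Socs genes were listed, against 13.7% of all protein-coding genes. The 3 had gains alone, as did 87.0% of all listed genes. Stat5b, which relays signals of many blood cell growth factors, had 1 site in intron 1 of 18, 9151 bp past its start, at 37.2 percentage points. Socs7 had the highest value of any member: its 4 intergenic sites, 38273 to 43092 bp past the start on chromosome 11, gained 78.6, 49.0, 33.3 and 50.0 percentage points in order of position. The first and second of them, 8 bp apart on the same strand (97262138 and 97262146), differed by nearly 30 percentage points, so close neighbours did not always carry similar values. Socs5 showed the same at 126 bp, with 25.6 and 47.2 percentage points at sites 1179 and 1053 bp upstream of its start, on opposite strands. Socs1, the main brake on interferon and interleukin signals, had 1 site in its 3′ UTR, at 26.6, among the smallest gains.

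The side of the start could be read once the sign of each distance was corrected for strand. Of the 56 sites 14 lay upstream (25.0%, 14.4 to 38.4%), against 37.0% of all listed sites. The median gain was 36.8 percentage points at the 14 upstream sites (binomial 95% interval 29.1 to 40) and 38.6 at the 37 hypermethylated sites past the start (34.4 to 44.4), so the intervals overlapped. Over all hypermethylated sites these medians were 40.1 and 41.5 percentage points. No loss lay upstream (0 of 5, exact interval 0 to 52.2%), against 39.7% of all listed losses, a share within that interval. The 5 losses stood at 4 places, since the Csf2ra pair is 5 bp apart. Within 5000 bp of a start lay 25 of the 56 sites (44.6%), against 43.9% of all. Of the 56 sites 7 were annotated to a transcript of another gene, those nearest Cxcl16, Il4i1, Tnfrsf18 and Tnfrsf23.

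**Figure D4:**
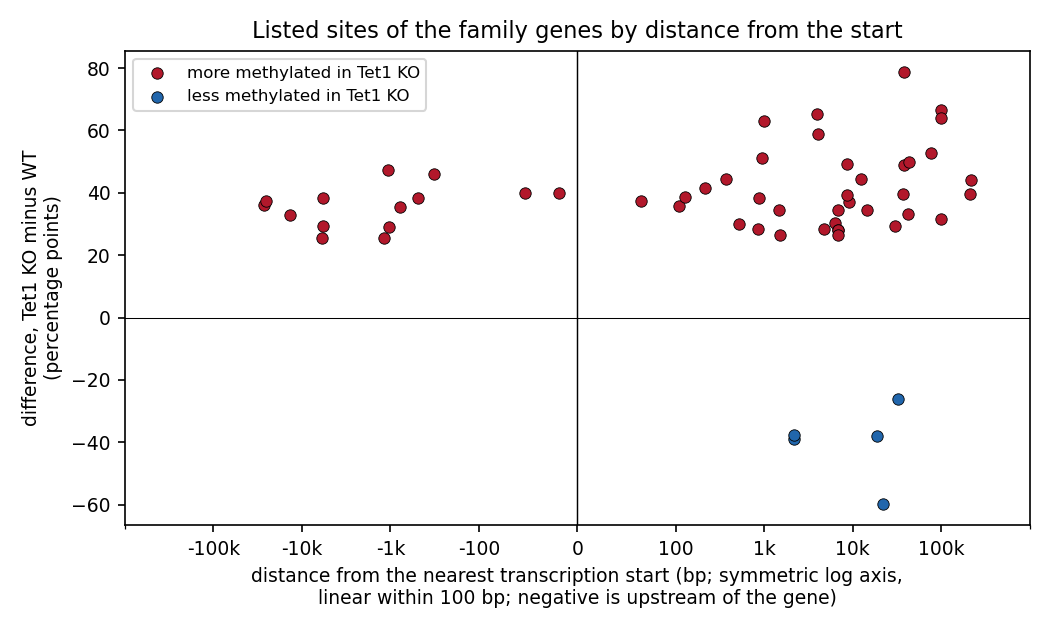
Methylation difference (vertical axis, percentage points, Tet1 KO minus WT) of the 56 sites against the distance from the nearest transcription start (horizontal axis, bp, symmetric log scale, linear within 100 bp, upstream to the left); red is more and blue less methylated in Tet1 KO. The red points spread over both sides of the start, with medians of 36.8 upstream and 38.6 past it, and the 5 blue points lie past it.

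Chromosome 11 held 17 of the 56 sites (30.4%), against 8.76% of all listed sites. They were nearest 8 of the 33 genes, and 5 were the clustered sites of Tnfrsf13b and 4 those of Socs7. The RefSeq table places 13.8% of the coding genes of these families there, against 7.35% of all coding genes, which are shares of genes and not of sites.

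Genes of the same pathways under other names were also listed in both directions. Of 95 such genes in a list that does not overlap the members, 18 were nearest to a listed site (18.9%, exact interval 11.6 to 28.3%), against 13.7% of all protein-coding genes. Of the 18, 13 had gains alone (72.2%, 46.5 to 90.3%) and 5 had a loss, against 87.0% with gains alone among all listed genes. Their listed sites were 32 hypermethylated (86.5%, 71.2 to 95.5%) and 5 hypomethylated, against 92.8% hypermethylated among all. All 3 intervals hold the share of the whole lists. The NF-κB group had 6 of 26 genes listed, beside the same 13.7%. Rela, the main activating NF-κB subunit, had 3 gains of 30.9 to 71.9 percentage points, and Nfkb2 had 1 of 32.4. Cyld, a deubiquitinase that restrains NF-κB, had 4 intergenic gains 82436 to 82758 bp away, of 35.7 to 48.8 percentage points. Pias3, an inhibitor of Stat proteins, had 4 exonic gains of 48.0 to 57.3. Among receptors of blood growth factors, Epor, the erythropoietin receptor gene, had 1 exonic gain of 54.0 at 237 bp from the start, and Osmr, a receptor chain for oncostatin M, had 6 gains of 28.2 to 65.3. The TNF receptor genes Cd40 and Fas had 1 intronic gain each, of 56.1 and 38.6. Losses were listed nearest Irf1 (-39.4 percentage points), Nfkbiz (-39.0), Eda2r (-32.4), Cradd (-32.0) and Ngfr (-36.2, beside 2 gains). Those nearest Nfkbiz and Eda2r were intergenic, 266076 and 198555 bp away. Those nearest Irf1 and Cradd were intronic, 33943 and 12318 bp from the start. The IRF group had 3 of 9 genes listed, beside 13.7% of all protein-coding genes, and those other than Irf1 had gains alone. None of 10 chemokine genes under other names was listed. Ackr3, planned for the same group, was left out because it was already a member as Cxcr7.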

How the data were processed

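The authors' deposited tables list hypermethylated and hypomethylated cytosines, annotated on mm9 per the file headers. Bismark is named in the submitters' processing notes; which program called the differences, with what coverage minimum and threshold on p, is not given in the sources used here. Per cytosine the deposited values are a methylation difference in percentage points over 6 samples and, as the other measurement, a distance to the nearest start, with 0 columns of per-sample values, so the depth per sample is unknown.

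From these, members were selected by gene name, and shares were given exact Clopper-Pearson and medians binomial 95% intervals (scipy 1.17.1, pandas 2.3.3, Python 3.11.15). Sites of the same direction under 1000 bp apart were joined for region counts. Regions took their commonest feature. No set test was run. The joining and the interval of a median were tested on simulated data, and the name rule on a short list of chosen names. The exact interval of a share was not tested.

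The deposited sign of the distance was reversed for reverse-strand cytosines, so negative means upstream of the gene, a step chosen after the data were seen. At distances oriented this way, 91 of 124 listed sites within RefSeq promoter windows (GRCm38.p6) fell on a CG. That is 73.4%, against 5.22% of positions in those windows. For cytosines on the strand opposite to the gene, the CG was the one whose G pairs with the cytosine. Cytosines of both strands were counted together, though only reverse-strand signs were changed. No share was computed with the unreversed sign, so the reversal alone was not tested. Of the 33 members all matched RefSeq by gene ID and 26 had a promoter entry. RefSeq was used for names, gene counts and promoter letters, never to place mm9 positions.

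Full values were planned for genes with at least 3 sites, a promoter or exon 1 site, or a hypomethylated site. They were also planned for the largest difference of each family. The other named members were to be given by family, but the differences at their sites were printed too. By name, 1 member gene is not reported here, though the counts include it. The members and lists were chosen with earlier results of these data known. Alternatives were another threshold, joining of sites, forward-strand sites, autosomes, nearby sites, current symbols, a narrower name rule and lists without Tnfrsf13b; omission of Il4i1 was added after the data were seen.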

Additional observations from a re-analysis of the deposited data

How the results depend on the processing

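The 5 summary values of the family genes were recomputed under up to 11 alternatives, 50 values in all. Of these, 47 stayed within the 95% interval of the reported value (for the number of genes, within 1.5 times it). The 47 include the values for autosomes alone, which could not differ because every member site lay on an autosome. The narrower name rule left out Tnfaip1 alone. The hypermethylated share ran from 89.5% with sites under 5000 bp apart joined to 95% (19 of 20 sites) at 40 percentage points, and the promoter share from 7.69 to 19.0%. With the threshold raised to 40 percentage points, the median gain was 49.4 percentage points and 13 genes were left, both set by the higher threshold. That count holds both Cxcl3 sites that stand at exactly 40. On the forward strand alone 19 genes were left, since fewer sites entered. Leaving out Tnfrsf13b moved the share within 5000 bp of a start to 49.0%. No paired analysis was possible because the deposited tables hold 1 value per cytosine over all samples; for the same reason no replicate could be left out. Without coverage, a cytosine that is not listed may be unchanged, under the threshold or unread.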
